A study of Mus musculus with 28 samples.

Results

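The mitochondrial genome of the mouse carries 37 genes. All 37 were among the 53801 genes of the deposited count table, where they were chosen by symbols that start with mt-, and they are described here in the brains of 28 mice. Of these genes, 2 encode the ribosomal RNAs (rRNAs) of the mitochondrial ribosome, 22 encode transfer RNAs (tRNAs) and 13 encode subunits of the respiratory chain and of ATP synthase. By their annotation 28 lie on the plus strand of the mitochondrial chromosome and 9 on the minus strand, and these are called heavy-strand and light-strand genes here. The heavy-strand set holds both rRNAs, 14 tRNAs and 12 protein genes, and the light-strand set holds 8 tRNAs and 1 protein gene, mt-Nd6.

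Mitochondrial DNA is a small circle that is transcribed along both strands into long RNAs spanning many genes. Cutting at the tRNAs that punctuate these precursors frees the rRNAs, the messenger RNAs and the tRNAs themselves, and most messenger RNAs then receive short poly(A) tails. The proteins made from them sit beside many nuclear-encoded subunits in the complexes that drive most of the ATP synthesis of the brain.

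The study asked what a liver-directed gene therapy does in the brains of mice without progranulin, the protein encoded by Grn, whose loss causes a form of frontotemporal dementia. All mice were C57Bl/6J, and 4 groups of 7 were formed. Wildtype (WT) mice and mice with a double knockout (DKO) of Grn and Tmem106b, which encodes a lysosomal membrane protein, were given either saline or AAV(L):bPGRN in the tail vein at the age of 6 weeks. AAV(L):bPGRN is an adeno-associated virus directed to the liver. It encodes human progranulin fused to 8D3, an antibody fragment against the mouse transferrin receptor, a protein of the blood vessels of the brain. It was dosed at 1.3e+13 vector genomes per kg, and the mice were killed 9 to 10 weeks later, at 15 to 16 weeks of age, after perfusion with buffered saline. RNA came from 1 powdered hemibrain per mouse, which included the cerebellum and lacked the olfactory bulb, and was counted by QuantSeq, a method that primes on poly(A) with oligo-dT and yields 1 tag near the 3′ end of an RNA. The labels place the mice in 4 batches without saying what a batch was. DKO saline had 1, 1, 1 and 4 mice in batches 1 to 4, DKO AAV had 1, 2, 1 and 3, and both WT groups had 1, 2, 2 and 2.

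Libraries held between 1164637 and 2389815 counts, and no value in the count table carries more than 2 significant digits. Tmem106b had 11 to 30 counts in DKO and 81 to 200 in WT libraries. Grn had 170 to 450 counts in DKO saline and 120 to 390 in WT saline libraries. Whether the 3′ end of Grn lay in the deleted part was not given in the sources used here, and its tags do not check the labels. Every marker in the lists for neurons (7 genes), astrocytes (6), microglia (6) and oligodendrocytes (6) was counted in every library. Of the regional marker lists, only the striatal and the cerebellar one were checked for a score below -1 on the log2 scale, which 3 libraries had. This was the striatal list in replicate 2 of DKO saline and the cerebellar list in replicate 6 of WT saline and replicate 7 of WT AAV. The score of a pituitary list, which was not part of that check, also lay below -1 in many libraries. It was 4.97 in replicate 3 of DKO saline, 4.29 in replicate 3 of WT saline and 4.79 in replicate 3 of WT AAV. Leaving out the libraries of unusual regional content, as done below, kept these replicates.

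The comparisons turn on the classes and strands of these genes. To show how short the tRNA members are, 4 of them are printed as the DNA of their own strand, from GENCODE transcripts on GRCm38, 5′ to 3′, with the anticodon in capitals. The isoleucine and methionine tRNAs are heavy-strand genes (mt-Ti at chrM:3706-3774 and mt-Tm at chrM:3845-3913), and the proline and glutamate tRNAs are light-strand genes (mt-Tp at chrM:15356-15422 and mt-Te at chrM:14071-14139).
mt-Ti: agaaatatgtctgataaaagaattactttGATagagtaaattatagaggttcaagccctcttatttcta
mt-Tm: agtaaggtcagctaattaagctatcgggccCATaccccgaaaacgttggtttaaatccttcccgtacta
mt-Tp: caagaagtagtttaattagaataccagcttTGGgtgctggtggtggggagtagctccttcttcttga
mt-Te: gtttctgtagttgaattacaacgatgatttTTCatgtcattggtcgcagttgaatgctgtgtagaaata
These genes are 67 to 69 bases long. The longest run of A in their own strand is 4 bases, in mt-Ti and mt-Tm. Which RNA gave the tags assigned to them, a tailed tRNA, an uncut precursor or another one, was not tested.

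The 37 genes took a smaller share of the counts in DKO than in WT brains. In WT saline libraries the mitochondrial share had a lowest, median and highest value of 18.9%, 20.3% and 21.1%, and in DKO saline libraries of 12.6%, 16.2% and 19.0%. All but 1 of the DKO saline mice lay below every WT saline mouse, and the exception, replicate 5, lay just above the lowest of them. The means were 20.1% ± 0.90 (SD, n = 7) and 15.8% ± 2.42 (SD, n = 7), a difference of -4.32 percentage points (exact two-sided permutation test, p = 0.00117, adjusted p = 0.00622 over 16 tests of shares and ratios).

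No difference between treatments passed the test in this measure. DKO AAV libraries ranged from 14.1% to 19.0% with a median of 15.5%, and WT AAV libraries from 17.4% to 21.9% with a median of 19.0%. DKO AAV exceeded DKO saline by 0.43 points (exact permutation p = 0.714, adjusted p = 0.762), and WT AAV differed from WT saline by -1.11 points (exact permutation p = 0.121, adjusted p = 0.215). The genotype difference was also present between the 2 groups that received AAV, which share no mouse with the saline groups, at -2.78 points (exact permutation p = 0.0157, adjusted p = 0.045 over 20 tests). That comparison was added after the data had been seen, and it no longer passed the threshold without any one of 9 of its 14 mice, where adjusted p rose to at most 0.0772. It was also lost from the deposited CPM (-2.69 points, adjusted p = 0.0566) and without genes near one on the other strand (adjusted p = 0.0544). The same held without the libraries of unusual regional content (adjusted p = 0.0835), in these groups only WT AAV replicate 7, and without batch 1, 2 or 3.

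The size of the difference was not the same in all batches. Within batches 1, 2, 3 and 4 the mean share of DKO saline minus that of WT saline was -7.61, -7.51, -5.19 and -2.45 points. The 4 DKO saline mice of batch 4 had shares of 16.2% to 19.0%, above the 12.6% to 14.8% of the 3 in the other batches, and the 3 DKO AAV mice of batch 4 likewise had 17.7% to 19.0% against 14.1% to 15.5%. In WT saline the 2 mice of batch 4 had 18.9% and 21.1%, just outside either end of the 19.0% to 20.9% of the other batches. No batch holds more than 4 mice of a group, so no test was made within one. The call in saline mice was lost without batch 2 (-3.79 points, adjusted p = 0.0635), batch 3 (-4.22 points, adjusted p = 0.0577) or batch 4 (-6.67 points, adjusted p = 0.0714). Fewer splits of the mice are possible there, and the cause of these losses was not tested.

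**Figure D1:**
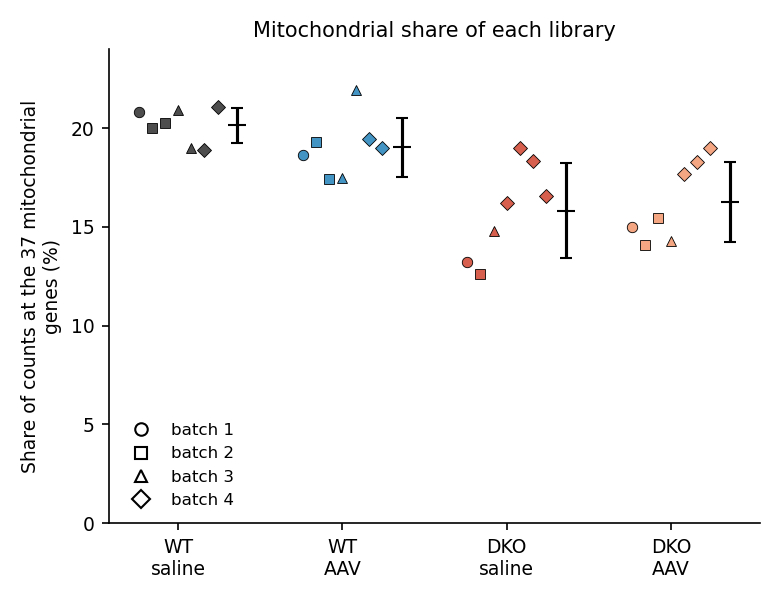
Share of all counts at the 37 mitochondrial genes (y axis, percent) in each of 28 mice by group (x axis). Marker shapes give the batch, and bars give the mean ± SD of 7 mice. DKO mice lie between 12.6% and 19.0%, and WT mice between 17.4% and 21.9%.

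Gene by gene, counts were compared with edgeR's quasi-likelihood test across the 11123 genes that passed a filter on low counts, with sex and batch in the model. Of the 37 mitochondrial genes 22 passed this filter: both rRNAs, 8 protein genes and 12 tRNA genes. A gene is called where the Benjamini-Hochberg adjusted p over all tested genes is below 0.05, log2 fold changes are given ± SE, and CPM are counts scaled by library size and TMM (trimmed mean of M-values) factors. In DKO saline against WT saline mice 21 of the 22 were called lower and none higher, where 3.27% of all tested genes were called lower and 3.62% higher. The median log2 fold change over the 22 was -0.87, against 0.00 over all tested genes. Without the 3 libraries of unusual regional content the count was also 21. In this bulk tissue, fewer cells of a type and less RNA per cell cannot be told apart.

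The 2 rRNAs fell by about the same amount. mt-Rnr2, the 16S rRNA of the large mitochondrial ribosomal subunit, had a lowest, median and highest value of 56497, 62326 and 78476 CPM in WT saline mice and of 30660, 49447 and 64528 CPM in DKO saline mice. Values of mt-Rnr1, the 12S rRNA of the small subunit, were 22868, 29007 and 32817 CPM and 14544, 20942 and 29648 CPM. For both rRNAs the 2 groups overlapped, and the 3 lowest DKO saline mice were those of batches 1, 2 and 3. The log2 fold changes were -0.51 ± 0.13 for mt-Rnr2 (adjusted p = 0.0162) and -0.51 ± 0.11 for mt-Rnr1 (adjusted p = 0.00516). Within batches 1 to 4 the mt-Rnr2 difference was -0.82, -1.04, -0.61 and -0.06, so batch 4 showed almost none.

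Among heavy-strand protein genes 6 of the 7 tested fell. Most encode subunits of complex I, which passes electrons from NADH to ubiquinone. mt-Nd1, a membrane subunit of complex I, had a lowest, median and highest value of 28123, 37697 and 43071 CPM in WT saline mice and of 20549, 24465 and 30520 CPM in DKO saline mice. The groups met at 2 DKO saline mice and 1 WT saline mouse, and the log2 fold change was -0.65 ± 0.10 (adjusted p = 4.92e-05). For mt-Nd2, another complex I subunit, the values were 7398, 8361 and 9151 CPM against 4324, 5872 and 6713 CPM. The groups did not overlap for this gene, which changed by -0.67 ± 0.11 (adjusted p = 0.000238). mt-Nd4, the other abundant complex I member, had 29594, 32084 and 41085 CPM against 19496, 26178 and 31888 CPM, with groups that overlapped and a log2 fold change of -0.47 ± 0.10 (adjusted p = 0.00235).

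The remaining heavy-strand protein genes that fell were mt-Co1, the catalytic subunit of cytochrome c oxidase (-0.49 ± 0.09, adjusted p = 0.000817), mt-Nd5 of complex I (-0.49 ± 0.09, adjusted p = 0.000603) and mt-Cytb, the cytochrome b of complex III (-0.42 ± 0.10, adjusted p = 0.00787). mt-Co1 had 6385, 6732 and 7657 CPM in WT saline and 3891, 5382 and 6714 CPM in DKO saline mice, and mt-Nd5 had 4170, 4659 and 5322 CPM against 2712, 3781 and 4360 CPM. mt-Cytb had 25082, 27079 and 28128 CPM against 16861, 21407 and 26853 CPM. For each of these 3 genes a single DKO saline mouse lay within the WT range, replicate 5 for mt-Co1 and mt-Nd5 and replicate 6 for mt-Cytb. The exception was mt-Nd3, a small complex I subunit, with 3.74, 18.2 and 35.0 CPM in WT saline and 0.872, 5.03 and 29.1 CPM in DKO saline mice. Its counts ran from 1 to 79 over all libraries and spread widely inside every group, and its log2 fold change of -0.86 ± 0.64 was not called (adjusted p = 0.475).

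mt-Nd6 is the complex I subunit read from the light strand. It had a lowest, median and highest value of 175, 229 and 243 CPM in WT saline mice and of 78.6, 136 and 165 CPM in DKO saline mice, with no overlap between the groups. Its log2 fold change was -0.92 ± 0.12 (adjusted p = 2.58e-06), so that its level fell by 47.3%. Within batches 1 to 4 it was -0.99, -1.53, -0.57 and -0.72. Over the alternatives tried, 44 in number, mt-Nd6 stayed called in each, with a log2 fold change between -1.05 and -0.78.

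All 7 tested heavy-strand tRNA genes fell, with log2 fold changes from -1.12 to -0.61 and a median of -0.93. mt-Tm, the methionine tRNA and the tRNA gene with the highest CPM, had 1231, 1346 and 1961 CPM in WT saline mice as lowest, median and highest value, and 527, 814 and 1570 CPM in DKO saline mice. Replicate 5 was the single DKO saline mouse within the WT range, and the log2 fold change was -0.89 ± 0.16 (adjusted p = 0.000366). mt-Ti, the isoleucine tRNA, had 296, 337 and 403 CPM against 94.3, 165 and 305 CPM. All but 1 DKO saline mouse, replicate 5, lay below every WT saline mouse, and the log2 fold change was -1.12 ± 0.17 (adjusted p = 3.86e-05).

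The other heavy-strand tRNAs called lower were mt-Tv for valine (-0.93), mt-Tl1 and mt-Tl2 for leucine (-0.84 for the first, and a level that fell by 49.9% for the second), mt-Tw for tryptophan (-0.95) and mt-Tt for threonine (-0.61). mt-Tl1 had 128, 188 and 233 CPM in WT saline and 62.9, 116 and 227 CPM in DKO saline mice, and mt-Tv had 78.5, 94.2 and 140 CPM against 37.9, 48.7 and 105 CPM. Both overlapped between the groups. mt-Tl2 was scarcer, with 25.7, 35.4 and 48.6 CPM against 8.43, 17.6 and 51.4 CPM. mt-Tw had the lowest counts of this set, with 11.4, 15.6 and 23.6 CPM against 4.89, 8.72 and 11.1 CPM, yet its saline groups did not overlap. mt-Tt, at 85.6, 105 and 112 CPM against 42.7, 68.0 and 131 CPM, had the smallest difference of the tRNAs, and its call was lost under 10 of 44 alternatives.

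Light-strand tRNAs included the members with the smallest p-value and with the largest difference. mt-Tp, the proline tRNA, had 222, 272 and 392 CPM in WT saline mice and 89.6, 140 and 235 CPM in DKO saline mice as lowest, median and highest value. A single DKO saline mouse, replicate 5, reached into the WT range, and the log2 fold change was -1.15 ± 0.13 (adjusted p = 4.18e-07), so that its level fell by 54.9%. mt-Te, the glutamate tRNA, had 14.1, 16.8 and 19.3 CPM against 3.69, 6.98 and 11.7 CPM, with no overlap. It changed by -1.33 ± 0.19 (adjusted p = 2.32e-05).

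mt-Tq, the glutamine tRNA, had 135, 193 and 261 CPM against 43.7, 116 and 270 CPM and changed by -0.90 ± 0.20 (adjusted p = 0.00493), with DKO saline replicate 5 as the mouse above the others. The tRNAs for cysteine (mt-Tc, -1.04) and alanine (mt-Ta, -0.94) were called lower as well. mt-Tc had 121, 185 and 252 CPM against 51.1, 93.1 and 209 CPM, and mt-Ta had 141, 182 and 247 CPM against 62.9, 104 and 244 CPM, both with overlap. All 6 tested light-strand genes thus fell, with a median of -0.99. Over all members, 4 of the 22 (mt-Nd2, mt-Tw, mt-Nd6 and mt-Te) had saline groups that did not overlap, a state reached downward by 0.225% of all tested genes.

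**Figure D2:**
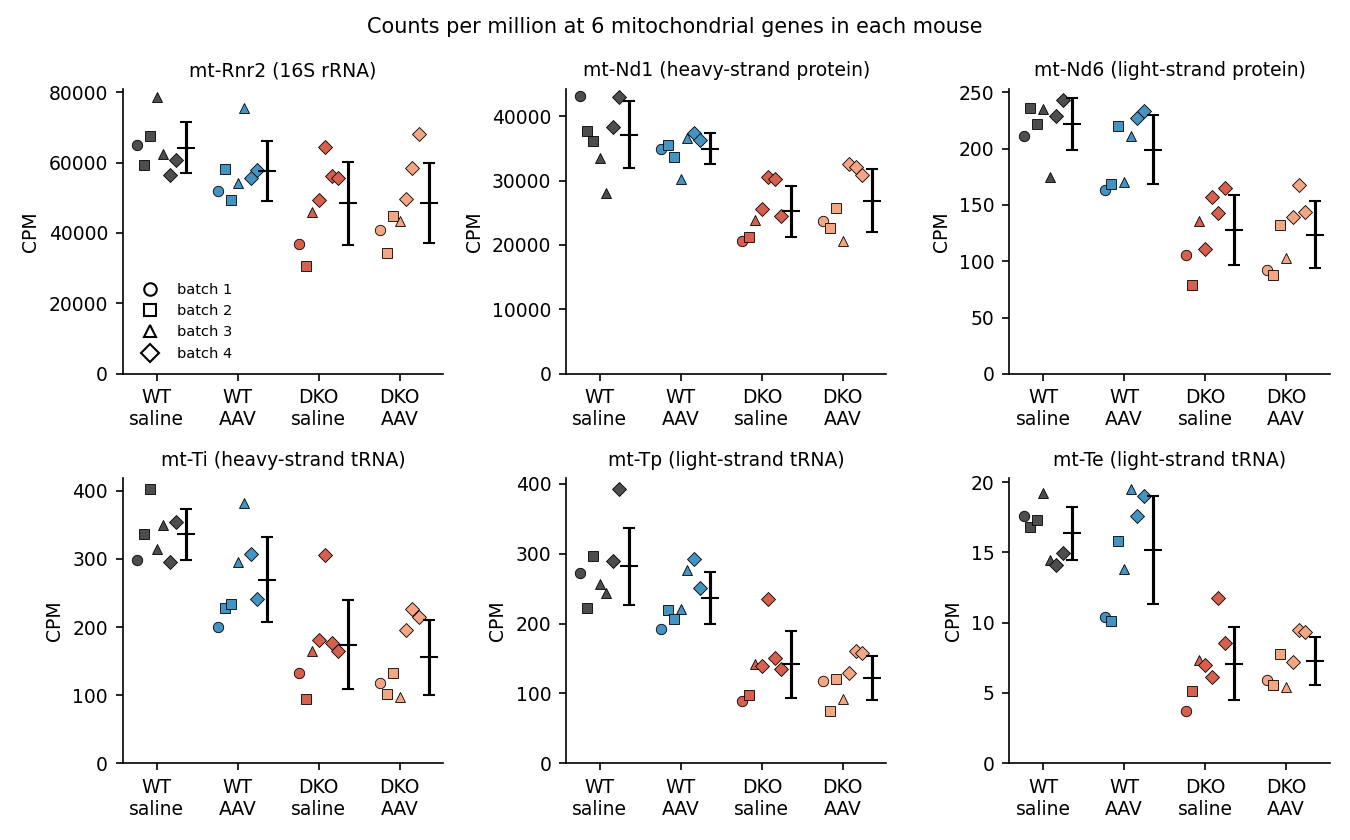
CPM (y axis, starting at 0) of 6 mitochondrial genes in each mouse, by group, with the batch as marker shape and the mean ± SD of 7 mice as bars. For mt-Nd6 the saline WT mice lie at 175 to 243 CPM and the saline DKO mice at 78.6 to 165 CPM, and for mt-Te at 14.1 to 19.3 and 3.69 to 11.7 CPM.

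In each batch the direction was the same for nearly all members. The difference between DKO saline and WT saline lay below 0 in every batch for 21 of the 22 genes, with mt-Nd3 as the exception. The median over the 22 was -1.12, -1.29, -0.54 and -0.58 in batches 1 to 4. In batch 4, the 6 light-strand genes had a median of -0.73, the 7 heavy-strand tRNAs of -0.76, the 7 heavy-strand proteins of -0.26 and the rRNAs of -0.09. Without the sex and batch terms in the model 12 of the 22 genes were called, all lower.

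The genotype comparison among the AAV mice repeats the question in 14 other animals and was chosen after the data had been seen. Here 15 of the 22 genes were called lower and none higher, where 3.96% of all tested genes were called lower and 1.96% higher, and the median log2 fold change was -0.47. mt-Tp had 193, 220 and 293 CPM in WT AAV mice and 74.2, 120 and 160 CPM in DKO AAV mice, without overlap, and changed by -1.04 ± 0.13 (adjusted p = 9.81e-06). mt-Te had 10.1, 15.8 and 19.5 CPM against 5.44, 7.22 and 9.48 CPM, again without overlap, and changed by -1.12 ± 0.19 (adjusted p = 0.000445). These were the 2 members whose AAV groups did not overlap, against 0.719% of all tested genes.

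Light-strand mt-Nd6 had 163, 211 and 233 CPM in WT AAV mice and 88.1, 132 and 168 CPM in DKO AAV mice. The groups overlapped slightly, and the gene changed by -0.76 ± 0.12 (adjusted p = 0.000144). Of the heavy-strand tRNAs, mt-Ti had 200, 242 and 382 CPM against 97.8, 132 and 226 CPM and changed by -0.87 ± 0.17 (adjusted p = 0.00139). mt-Tm had 964, 1070 and 1624 CPM against 463, 575 and 1147 CPM and changed by -0.81 ± 0.16 (adjusted p = 0.00158). In both, the DKO AAV mice within the WT range were replicates 6 and 7, of batch 4.

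The rRNAs differed in their call among the AAV mice. mt-Rnr1 had 21292, 25179 and 33289 CPM in WT AAV and 15757, 17979 and 24368 CPM in DKO AAV mice and was called at -0.46 ± 0.11 (adjusted p = 0.0126). mt-Rnr2 had 49451, 55687 and 75510 CPM against 34294, 44949 and 68086 CPM and was not called, at -0.28 ± 0.13 (adjusted p = 0.204). The difference between these 2 rRNAs was not itself tested.

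All 6 heavy-strand protein genes other than mt-Nd3 were called, from -0.46 to -0.32. mt-Nd1 had 30214, 35452 and 37369 CPM in WT AAV and 20654, 25771 and 32497 CPM in DKO AAV mice, and mt-Nd4 had 27473, 32076 and 35725 CPM against 20654, 24989 and 29896 CPM. mt-Nd2 had 6169, 7555 and 10555 CPM against 4892, 5721 and 7884 CPM. In all 3 genes the DKO AAV mice that overlapped with WT AAV were of batch 4. For mt-Co1 the values were 5907, 6450 and 7470 CPM against 4185, 4615 and 6522 CPM, for mt-Nd5 3840, 4596 and 5034 CPM against 2826, 3288 and 4302 CPM, and for mt-Cytb 22031, 26755 and 30042 CPM against 17392, 20391 and 25521 CPM. mt-Nd3, which was not called, had 1.89, 8.24 and 50.6 CPM against 3.60, 23.7 and 56.6 CPM.

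The other tRNAs called lower in DKO AAV mice were mt-Tv (-0.73), mt-Tl1 (-0.62) and mt-Ta (-0.76). Their values were 63.8, 84.4 and 106 CPM against 29.2, 43.4 and 78.8 CPM for mt-Tv, 104, 127 and 187 CPM against 60.2, 95.9 and 151 CPM for mt-Tl1, and 110, 129 and 227 CPM against 37.1, 83.9 and 139 CPM for mt-Ta. Not called were mt-Tq (-0.64, adjusted p = 0.0552), mt-Tc (-0.48), mt-Tl2 (-0.53), mt-Tw (-0.40) and mt-Tt (-0.19). mt-Tq had 110, 144 and 198 CPM against 45.9, 102 and 150 CPM, and mt-Tc had 94.4, 130 and 139 CPM against 46.3, 102 and 131 CPM. mt-Tl2 had 11.1, 25.9 and 27.6 CPM against 8.81, 17.8 and 29.4 CPM, mt-Tw 11.3, 12.1 and 16.9 CPM against 5.10, 8.70 and 17.5 CPM, and mt-Tt 68.7, 80.6 and 101 CPM against 51.0, 72.9 and 136 CPM. In these last 3 the highest mouse was a DKO AAV mouse.

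This count moved more between alternatives than the one in saline mice. It was 9 with the RNA integrity number as a further term, 4 without the sex and batch terms, 5 and 4 without batches 2 and 3, and 7 without DKO AAV replicate 4. mt-Nd6 and mt-Tp were called under all 44 alternatives.

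**Figure D3:**
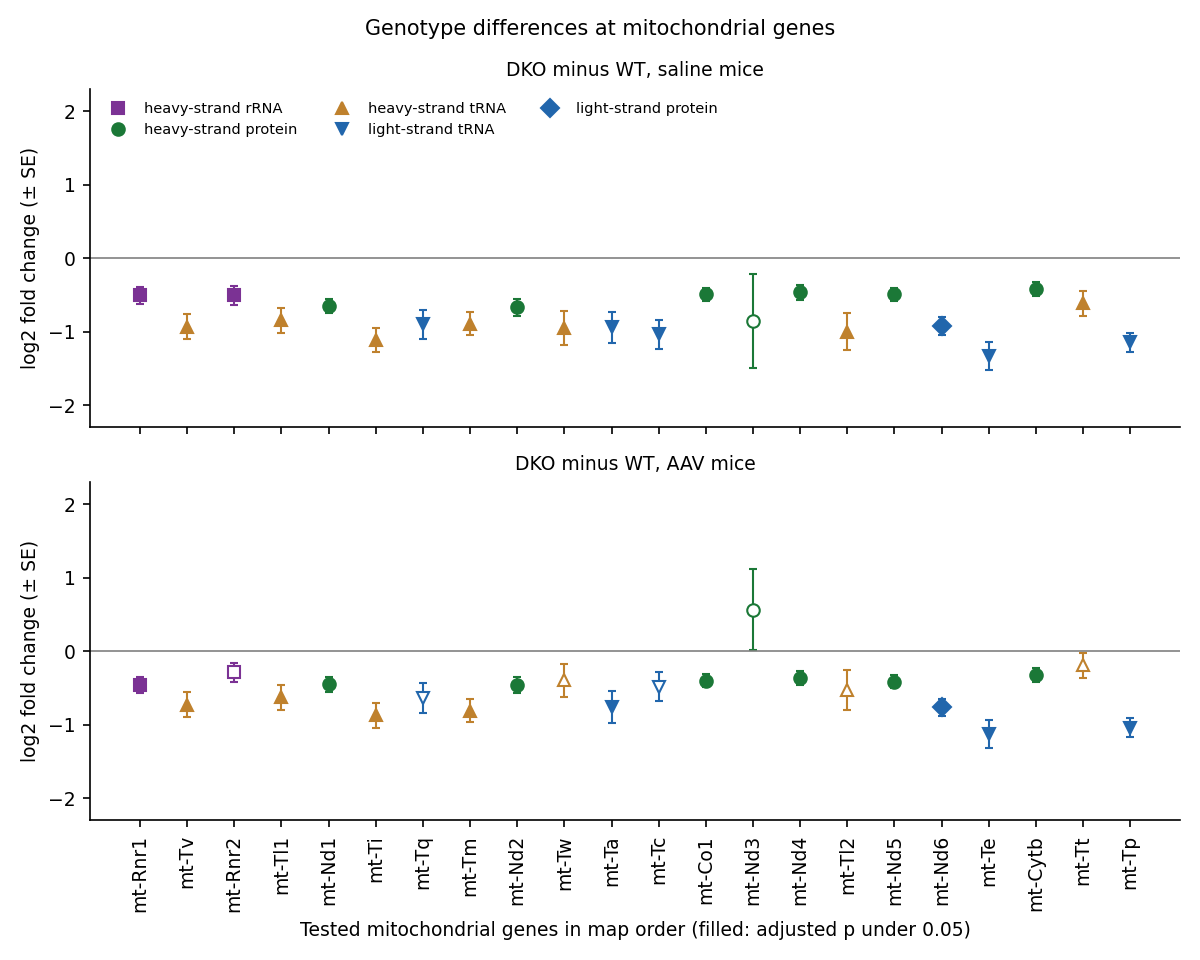
Log2 fold change ± SE (y axis) of DKO against WT mice for the 22 tested mitochondrial genes in map order (x axis), in saline mice above and AAV mice below. Filled markers have an adjusted p under 0.05. Light-strand genes and tRNAs have lower medians than the heavy-strand protein genes and rRNAs, at -0.99 and -0.94 against -0.49 and -0.51 in saline mice. In AAV mice these medians are -0.76 and -0.68 against -0.40 and -0.37. Single genes of these sets overlap, such as mt-Tt with mt-Nd1 in both panels.

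Ratios within the mitochondrial counts of each mouse compare classes and strands independently of library size. Strand and class cannot be told apart in the light-to-heavy ratio. Of the 9 light-strand genes 8 are tRNAs, while both rRNAs and 12 of the 13 protein genes are heavy-strand. Among tested tRNA genes alone, the median log2 fold changes between the genotypes were -1.04 (light) and -0.93 (heavy) with saline. With AAV they were -0.76 (light) and -0.62 (heavy). Summed counts of light-strand genes made up a lowest, median and highest 0.419%, 0.478% and 0.614% of the mitochondrial counts in WT saline libraries and 0.304%, 0.346% and 0.562% in DKO saline libraries. With AAV the values were 0.367%, 0.445% and 0.509% in WT and 0.227%, 0.353% and 0.398% in DKO libraries. As log2 ratios of light-strand to heavy-strand counts the saline means were -7.62 ± 0.22 (SD, n = 7) in WT and -8.06 ± 0.31 (SD, n = 7) in DKO mice. The difference of -0.43 just passed the threshold (exact permutation p = 0.0152, adjusted p = 0.0485 over 16 tests).

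That call depended on single mice. Leaving out any one of 10 of the 14 mice took the adjusted p above 0.05, to 0.0951 at most, with differences from -0.45 to -0.38 in those 10. Permuting within batches gave an adjusted p of 0.0889, and within batches 1 to 4 the difference was -0.66, -0.68, -0.10 and -0.55. Between the AAV groups the mean log2 ratio was -8.23 ± 0.28 (SD, n = 7) in DKO and -7.85 ± 0.18 (SD, n = 7) in WT mice. This difference of -0.39 passed the threshold (exact permutation p = 0.00583, adjusted p = 0.0233 over 20 tests), and within batches 1 to 4 it was -0.26, -0.53, -0.44 and -0.37. The call was lost without the genes near one on the other strand (-0.16, adjusted p = 0.526) and without batch 2, 3 or 4 (adjusted p = 0.0952, 0.114 and 0.068). It was also lost without the libraries of unusual regional content (adjusted p = 0.0559) and without WT AAV replicate 6 or 7 (adjusted p = 0.0505 for each). In these groups replicate 7 of WT AAV is the only library of unusual regional content, so its removal appears in both. Against WT saline, DKO AAV differed by -0.61 (exact permutation p = 0.000583, the smallest that 7 against 7 mice can give, adjusted p = 0.00622), and this call was lost without the genes near the other strand (adjusted p = 0.0503) or batch 2 (adjusted p = 0.0635).

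The 22 tRNA genes held a small share of the mitochondrial counts. Their median share was 1.40% in WT saline and 1.02% in DKO saline libraries, and with AAV it was 1.24% in WT and 0.935% in DKO libraries. The log2 ratio of tRNA to protein counts differed by -0.38 between DKO saline and WT saline (exact permutation p = 0.0414, adjusted p = 0.0946) and did not pass the threshold after adjustment. Without single mice the difference ran from -0.50 to -0.31 and its adjusted p from 0.00777 to 0.165. It passed only without DKO saline replicate 5 (-0.50, adjusted p = 0.00777), whose tRNA share of 1.69% was the highest of its group. DKO AAV against WT saline gave -0.63 (exact permutation p = 0.00175, adjusted p = 0.00699), DKO AAV against WT AAV gave -0.37 (adjusted p = 0.0648), and WT AAV against WT saline gave -0.26 (adjusted p = 0.0777). With permutation within batches both of the latter passed, at adjusted p = 0.0222 and 0.0296. Within batches 1 to 4 the first was -0.27, -0.53, -0.68 and -0.17 and the second -0.37, -0.37, -0.06 and -0.29. The call of DKO AAV against WT saline was lost without batch 2 or 3 (adjusted p = 0.0635 and 0.0606).

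Between rRNA and protein counts no difference in balance was detected. rRNAs took a median of 42.3% of the mitochondrial counts in WT saline and 43.7% in DKO saline libraries, and with AAV 41.6% in WT and 42.4% in DKO libraries. The log2 ratio of rRNA to protein differed by 0.01 between DKO saline and WT saline (exact permutation p = 0.937). Its spread among mice was 0.14 to 0.21 (SD, n = 7) in the 4 groups.

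**Figure D4:**
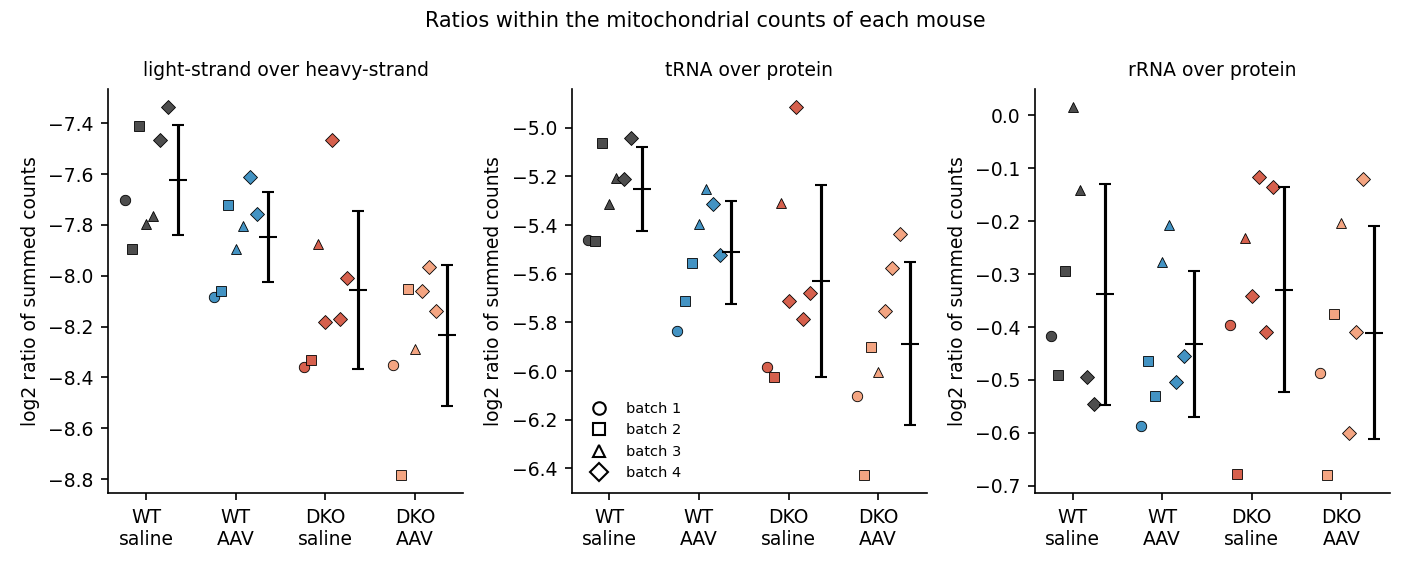
Log2 ratios (y axes) of summed counts of light-strand over heavy-strand genes, of tRNA over protein genes and of rRNA over protein genes in each mouse by group. Shapes give the batch and bars the mean ± SD of 7 mice. The light-to-heavy means are -7.62 (WT) and -8.06 (DKO) with saline and -7.85 (WT) and -8.23 (DKO) with AAV.

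No change of a mitochondrial gene with AAV(L):bPGRN was detected in DKO mice. In DKO AAV against DKO saline mice edgeR called 0 of the 22 genes, where 3.02% of all tested genes were called in either direction. DESeq2 and limma on the deposited CPM also called 0, and 1 gene, mt-Nd3, had an unadjusted p under 0.05. The median log2 fold change was 0.00, with 11 genes above 0 and 11 below. mt-Nd6 changed by -0.00 ± 0.12, mt-Nd1 by 0.12 ± 0.10 and mt-Tp by -0.14 ± 0.13. mt-Nd3 had the largest value, 1.37 ± 0.57 (adjusted p = 0.178), from medians of 5.03 CPM with saline and 23.7 CPM with AAV, and it was called when the 2 groups were fitted alone (adjusted p = 0.0444) or without a filter on low counts.

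Against WT saline, DKO AAV mice still had 19 of 22 genes called lower, where 3.82% of all tested genes were called lower and 1.43% higher, with a median of -0.81. The 3 not called were mt-Tw (-0.69), mt-Tt (-0.48) and mt-Nd3 (0.51). The groups did not overlap for mt-Nd6, mt-Tm, mt-Ti, mt-Tp, mt-Te and mt-Ta, 6 of the 22, against 0.836% of all tested genes. This comparison shares the WT saline mice with the saline genotype comparison and the DKO AAV mice with the AAV one. Without batch 2 the count was 12.

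In WT mice, AAV against saline gave 0 calls among the 22 genes, and 0% of all tested genes were called. DESeq2 and limma on the deposited CPM also called 0, and 6 genes had an unadjusted p under 0.05. All 22 differences lay below 0, with a median of -0.21. The median was -0.32 over the 12 tRNA genes and -0.07 over the 8 protein genes. The smallest p belonged to mt-Tc, at -0.56 ± 0.19 (unadjusted p = 0.00585, adjusted p = 1.00), with 121, 185 and 252 CPM in WT saline and 94.4, 130 and 139 CPM in WT AAV mice as lowest, median and highest value.

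Whether the treatment acted differently in the 2 genotypes was tested as a difference of differences. None of the 22 genes passed by edgeR, DESeq2 or limma, where 0.018% of all tested genes were called, and none had an unadjusted p under 0.05. The 22 estimates all lay above 0, with a median of 0.21 and SEs of 0.12 to 0.37 outside mt-Nd3. Between males and females 0 of the 22 genes were called by edgeR, DESeq2 or limma, where 0.045% of all tested genes were called, and none had an unadjusted p under 0.05.

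**Figure D5:**
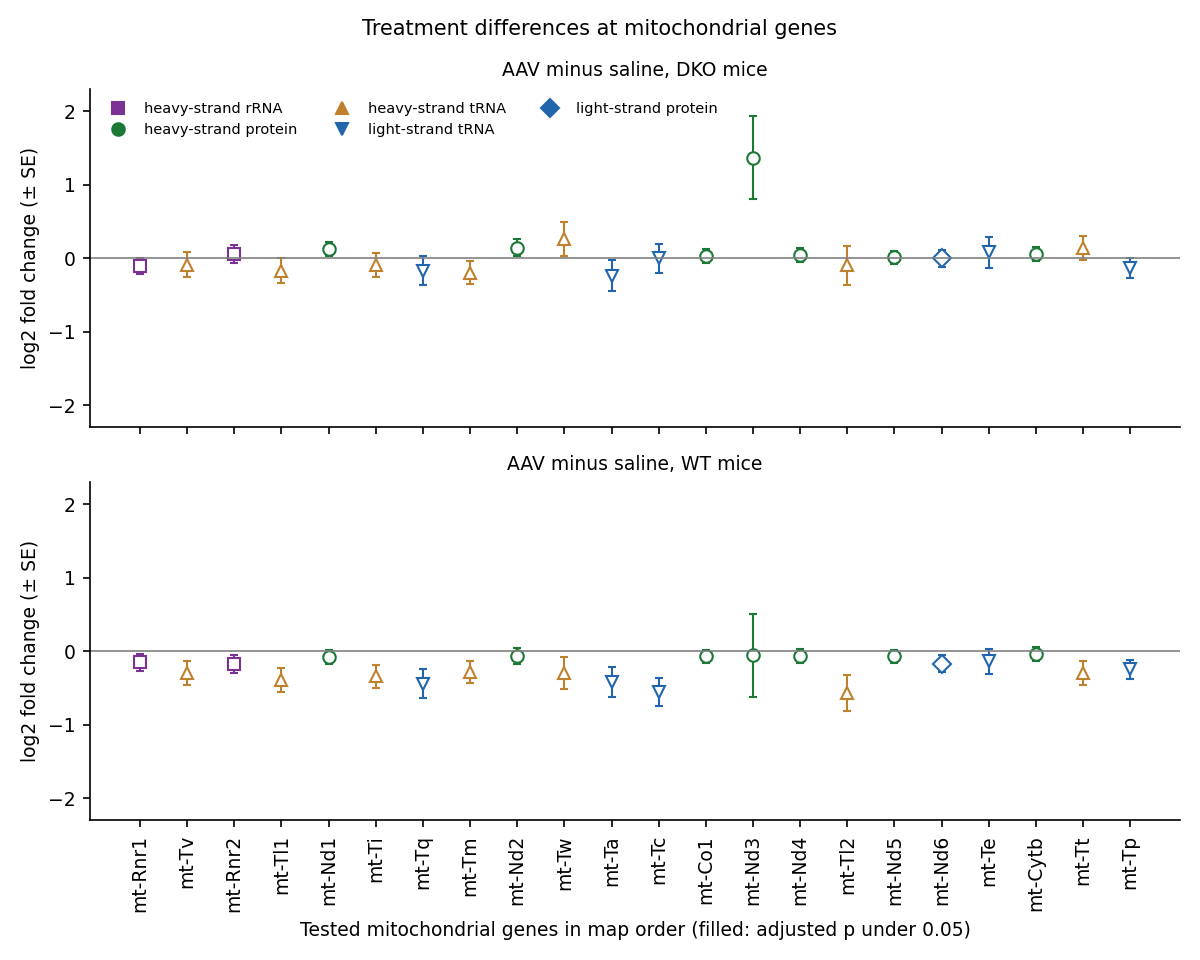
Log2 fold change ± SE (y axis) of AAV against saline mice for the 22 tested mitochondrial genes in map order (x axis), in DKO mice above and WT mice below. Open markers have an adjusted p of 0.05 or more, which holds for all 44 values. The medians are 0.00 in DKO and -0.21 in WT mice.

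Along the map, the rank correlation of the log2 fold change between DKO saline and WT saline with gene order depended on the set of genes. Over all 22 tested genes it was -0.07, over the 16 heavy-strand genes 0.28, over the 9 heavy-strand protein and rRNA genes 0.52 and over the 12 tRNA genes -0.38. Among the AAV mice these 4 values were 0.05, 0.51, 0.42 and 0.00. Over all 22 genes the correlation with length was 0.78 and with mean CPM 0.68, and among the AAV mice 0.46 and 0.25. The short and less counted members, mostly tRNAs, had the more negative values in saline mice. Within sets of genes the values were smaller or of the other sign. Over the 12 tRNA genes they were 0.29 and 0.20 with saline and -0.18 and -0.35 with AAV. Over the 9 heavy-strand protein and rRNA genes they were 0.52 and 0.20 with saline and 0.15 and 0.00 with AAV. Members share libraries, scaling and precursor RNAs, so these values are descriptions without a test.

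Neighbours on opposite strands differed in size of change in some pairs and hardly at all in others. In saline mice mt-Tw and mt-Ta had log2 fold changes of -0.95 and -0.94, and mt-Tq and mt-Tm of -0.90 and -0.89. Where mt-Ti and mt-Tq share 3 bases on opposite strands, heavy-strand mt-Ti had the lower value, -1.12 against -0.90. mt-Nd5 and mt-Nd6 share 14 bases at their ends, on opposite strands, and had log2 fold changes of -0.49 and -0.92 in saline mice. Next along the map come mt-Te, mt-Cytb, mt-Tt and mt-Tp, with -1.33, -0.42, -0.61 and -1.15, of which mt-Te and mt-Tp are light-strand genes. Neighbours on the same strand could differ as well: mt-Nd1 and mt-Ti share 2 bases and had -0.65 and -1.12. Whether the counting used strand was not given in the sources used here, and without that reads from opposite strands cannot be told apart where genes overlap or nearly touch. Without the 13 members within 5 bases of a member on the other strand, the light-to-heavy difference was -0.50 in saline mice (adjusted p = 0.0999) and -0.16 in AAV mice (adjusted p = 0.526).

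Levels differed widely between members. Per kilobase of gene, the median in WT saline mice was 39397 CPM for mt-Rnr2, 39391 for mt-Nd1, 30374 for mt-Rnr1, 23670 for mt-Cytb and 23283 for mt-Nd4. The first 2 overlapped in range, at 35713 to 49605 and 29386 to 45007 CPM per kilobase, as did the last 2, at 21925 to 24588 and 21476 to 29815. mt-Tm reached 19512 CPM per kilobase, mt-Ti 4878 and mt-Tp 4067. mt-Nd6 had 441 and mt-Te 244 CPM per kilobase. A 3′ tag method yields about 1 tag per RNA whatever its length, so values per kilobase raise short genes.

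Of the 15 members that did not pass the filter, 8 had no count in any library: mt-Co2, mt-Atp8, mt-Tn, mt-Ts1, mt-Td, mt-Tk, mt-Tg and mt-Th. With no count, a level of up to 3 counts is allowed, which is 1.26 to 2.58 CPM per library, for counting error only. mt-Atp6, mt-Co3, mt-Nd4l and mt-Ty never exceeded 3 counts. mt-Tf, mt-Tr and mt-Ts2 were counted at low levels. mt-Tf, the phenylalanine tRNA, had 2.85, 6.58 and 14.9 CPM in WT saline and 0, 1.83 and 4.36 CPM in DKO saline mice as lowest, median and highest value, and was not tested.

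Of the 5 protein genes that never exceeded 3 counts, mt-Co2, mt-Atp6, mt-Co3 and mt-Nd4l have a near-identical copy in the nuclear genome. For mt-Atp8, which had no count in any library, no match was found among annotated nuclear transcripts. The rest of the nuclear genome was not searched, so whether mt-Atp8 has a copy there is not known. Copies of mt-Co2 and mt-Atp6, the protein genes on either side of it, lie at chr1:24614885-24615565 and chr1:24613974-24614651. The bases between them were searched only where a transcript is annotated. Of the 37 members, 9 matched a nuclear transcript of GENCODE M21 over at least 60 bases at 95% identity or more. mt-Co2, a core subunit of cytochrome c oxidase, matched the predicted gene Gm28661 (chr1:24614885-24615565, GRCm38, minus strand) at 681 of its 684 bases without a difference. mt-Atp6 of ATP synthase matched Gm10925 at 678 of 681 bases, mt-Co3 of cytochrome c oxidase matched Gm28437 at 783 of 784, and mt-Nd4l of complex I matched Gm10222 at 294 of 297, each without a difference. These copies without a difference were themselves scarce: Gm28661 had 0 to 1 counts per library, Gm10925 0 to 3, Gm28437 4 to 27 and Gm10222 0 to 2. mt-Co2 also matched Gm13341 on chromosome 2 over all 684 bases with 28 differences, and Gm13341 had 13 to 34 counts.

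Copies that cover a gene in part, or differ from it, went with other counts. mt-Nd4 is identical to Gm28439 over its first 876 bases and has 502 further bases without that match, and it had 34000 to 57000 counts. mt-Co1 matches Gm29216 over its last 483 bases with 1 difference, A1066T counted from the first base of mt-Co1, and had 6900 to 11000 counts. It also matches Gm13340 over all its 1545 bases with 37 differences, and Gm13340 had 10 to 32 counts. mt-Nd3 matches Gm28438 over 345 of its 348 bases with 1 difference, T3C counted from its first base, and had 1 to 79 counts, whereas Gm28438 had 3 to 16. The first bases of this pair, from GENCODE transcripts on GRCm38, show how little separates them, with the differing base in capitals (mt-Nd3 at chrM:9459-9491, plus strand, and Gm28438 at chr1:24613087-24613119, minus strand).
mt-Nd3: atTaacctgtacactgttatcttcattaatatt
Gm28438: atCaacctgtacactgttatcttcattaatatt
How tags that match 2 places were treated was not given in the sources used here, and its part in the low counts of these genes was not tested.

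Nuclear genes that serve mitochondria were compared list by list between DKO saline and WT saline mice. In this comparison 3.27% of all tested genes were called lower and 3.62% higher. Of 18 genes of mitochondrial DNA replication and transcription 8 passed the filter and none was called, with a list median of 0.13. Tfam, which packages the DNA and starts transcription, had 0.24 ± 0.10 (adjusted p = 0.169) while Polg, the DNA polymerase, had -0.40 ± 0.17 (adjusted p = 0.16). Of 18 tested genes of mitochondrial RNA processing, polyadenylation and decay 1 fell (list median 0.09). It was Fastk, which encodes a mitochondrial protein known to be needed for the messenger RNA of mt-Nd6 (-0.40 ± 0.11, adjusted p = 0.0158). Of 17 tested genes of aminoacyl-tRNA synthesis 1 fell (list median 0.01), Iars2, the mitochondrial isoleucyl-tRNA synthetase, with 35.0, 41.7 and 45.2 CPM in WT saline and 27.8, 29.4 and 31.1 CPM in DKO saline mice. Its groups did not overlap, and the log2 fold change was -0.46 ± 0.10 (adjusted p = 0.00216).

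Fastk and Iars2 were also called lower between the AAV groups, at -0.39 (adjusted p = 0.0217) and -0.33 (adjusted p = 0.0383).

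Of 72 tested proteins of the mitochondrial ribosome 4 rose and none fell: Mrpl17 (0.63 ± 0.11), Mrps6 (0.61 ± 0.14), Mrpl15 (0.56 ± 0.14) and Mrps23 (0.39 ± 0.12). The list's median was 0.10. Between the AAV groups none of the 72 rose and 1 fell, with a median of -0.00, and Mrpl17 had 0.17 ± 0.11 (adjusted p = 0.381). Of 80 nuclear-encoded subunits of the respiratory chain 1 rose and none fell, Cox7a1, a tissue-specific subunit of cytochrome c oxidase (0.70 ± 0.21, adjusted p = 0.0372), and the median was -0.01. In DKO AAV against WT saline 9 of these 80 fell and none rose, with a median of -0.11, where 3.82% of all tested genes were called lower. Between the AAV groups 5 fell and none rose, with a median of -0.10, where 3.96% of all tested genes were called lower.

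None of 9 regulators of mitochondrial biogenesis and none of 12 mitochondrial chaperones, proteases and stress genes was called in saline mice, with medians of -0.08 for both lists. Of 12 mitophagy genes 2 rose, Sqstm1 (0.50 ± 0.08, adjusted p = 0.000113) and Optn (0.80 ± 0.25, adjusted p = 0.043), both autophagy receptors, and the list median was 0.12. Sqstm1 had 271, 289 and 323 CPM in WT saline and 336, 419 and 472 CPM in DKO saline mice, without overlap. Between the AAV groups none of the 12 was called, and Sqstm1 had 0.17 ± 0.08 (adjusted p = 0.238).

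Other measures moved with genotype too. Median RNA concentrations were 10100 (WT) and 17100 (DKO) pg per µl with saline and 8800 (WT) and 13600 (DKO) pg per µl with AAV. Median library totals were, in the same order, 1368072, 1708860, 1369167 and 1573432 counts. With log2 RNA concentration as a further term, 17 members were called lower in DKO saline against WT saline, at -1.24 for mt-Tp and -1.03 for mt-Nd6, and with the RNA integrity number (medians 9.6, 9.5, 9.6 and 9.2) 21 were. The summed CPM of the 6 microglial markers was 599 to 1094 in DKO saline against 355 to 538 in WT saline mice, that of the 6 astrocyte markers 5024 to 7287 against 4209 to 5482, and that of the 6 oligodendrocyte markers 4718 to 9752 against 6096 to 11863. The sums of the 7 neuronal markers were 2626 to 3862 in DKO saline against 2822 to 3534 CPM in WT saline mice, with the lower median in DKO mice. Cerebellar sums had medians of 608 (DKO) and 872 (WT) CPM with saline and of 976 (DKO) and 912 (WT) CPM with AAV. Between the AAV groups the microglial sums were 446 to 659 against 382 to 480 CPM, and the neuronal sums 3321 to 4329 against 3007 to 3779 CPM. The astrocyte sums there were 4252 to 5130 in DKO against 4761 to 5339 CPM in WT mice. Their median was lower in DKO mice, unlike with saline. Most of each astrocyte sum was Aldoc, with a median of 3677 CPM over all libraries. The score of the same list, a mean over its genes on the log2 scale, went the other way. It was 0.10 to 0.36 in DKO AAV against -0.23 to 0.14 in WT AAV mice. With saline its medians were 0.46 (DKO) and 0.12 (WT). The oligodendrocyte sums between the AAV groups were 4955 to 7451 against 6230 to 10822 CPM. The part of these differences in the mitochondrial values was not tested.

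Scaling by library totals in place of TMM moved the median log2 fold change of all tested genes between DKO saline and WT saline from 0.00 to 0.12, and 84.5% of all calls were then higher against 52.5%. The median of the 22 mitochondrial genes relative to that of all genes was -0.88 under both scalings, and 21 were called lower under both.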

How the data were processed

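Hemibrain RNA of 28 mice was sequenced by QuantSeq 3′ mRNA FWD with unique molecular identifiers, per the labels' protocols. The submitters' processing notes name FastQC 0.11.5, STAR, MultiQC 1.0, R 4.2, edgeR 3.40.2 and GRCm38.p6. Not given in the sources used here are the counting program, its strand setting, its treatment of tags that match several places, and the annotation release. The deposited table holds read counts per gene, and 100% of its values above 0 have at most 2 significant digits, so a count of 100 or more can be off by up to 4.76%. A second deposited sheet holds the authors' normalized signal (CPM), rounded in the same way, which served as an alternative. The authors' normalization factors, deposited as a ratio per library beside the library sizes and RNA concentrations, were not used in the fits.

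Counts were tested with edgeR 4.0.16 (R 4.3.3; filterByExpr by group with a minimum count of 10 and a total of 15, TMM factors, terms for group, sex and batch, quasi-likelihood test) over 11123 genes, with Benjamini-Hochberg adjustment. The SE was taken as the size of the log2 fold change divided by the square root of F. CPM were computed from counts and TMM factors. Shares and log2 ratios of summed counts were compared by exact two-sided permutation tests over all 3432 splits of 7 against 7 mice (scipy 1.17.1), adjusted over 16 tests. The comparison of DKO AAV with WT AAV was added after the data had been seen, which makes 20 such tests. Alternatives used DESeq2 1.42.0, limma 3.58.1, other scalings, filters and terms, and left out mice, batches or libraries. The edgeR script was tested on simulated data. Nuclear copies were sought with blastn 2.17.0 among GENCODE M21 transcripts, where all 37 genes have the coordinates of the deposited table. Sequences come from the same transcripts.

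Each library was taken as 1 mouse. Within groups, 84 pairs of libraries differed by more than sampling noise, which cannot show by itself that 2 libraries came from different mice. The members and the gene lists were chosen with earlier results of these data known. Full statistics were given, per class, for the 2 members with the highest mean CPM and the 2 with the smallest p in saline mice, and for other lists for up to 3 genes with the smallest p. Mrps23 was named beside them after its value was seen. Intervals and floors cover counting error only.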

Additional observations from a re-analysis of the deposited data

Results flagged for a closer look

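Of 104 groups of 7 mice checked, 7 had a mouse whose gap to the next one exceeded 0.568 of the group's range, where chance gives about 5.2. In 4 of them the mouse was replicate 5 of DKO saline, the highest of its group for mt-Ta (244 CPM), mt-Tc (209 CPM), mt-Ti (305 CPM) and mt-Tp (235 CPM). This mouse also had the highest mitochondrial share of its group, 19.0%, and the highest log2 ratios of light-strand to heavy-strand counts (-7.47) and of tRNA to protein counts (-4.92). In the other 3, replicate 7 of WT saline was highest for mt-Nd4 (41085 CPM), replicate 5 of WT AAV was highest for mt-Rnr2 (75510 CPM), and replicate 1 of WT AAV was lowest for mt-Tl2 (11.1 CPM).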

How the results depend on the processing

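No paired analysis was possible because the labels tie no mouse of one group to a mouse of another: the replicate numbers were given in accession order. No result changed its direction past the threshold under any alternative tried. Leaving out each mouse in turn gave 18 to 21 called genes in DKO saline against WT saline, 16 to 21 in DKO AAV against WT saline and 7 to 16 in DKO AAV against WT AAV, and 0 in the other comparisons. Without sex and batch terms 12 and 4 genes were called in the saline and the AAV genotype comparison. The AAV genotype comparison also gave 9 calls with the RNA integrity number as a term, 8 at a threshold of 0.01, and 5 and 4 without batches 2 and 3. DKO AAV against WT saline gave 12 without batch 2. Where no gene had been called, 1 gene was called without a filter on low counts in DKO AAV against DKO saline (mt-Nd3), in WT AAV against WT saline (mt-Tc) and in the difference between them (mt-Nd3), and 1 (mt-Nd3) when the DKO groups were fitted alone.

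The mitochondrial share of DKO saline against WT saline was -3.79, -4.22 and -6.67 points without batches 2, 3 and 4, with adjusted p of 0.0635, 0.0577 and 0.0714. For DKO AAV against WT saline it was -3.30 and -3.63 without batches 2 and 3. For DKO AAV against WT AAV it was -2.69 from the deposited CPM and -2.53 without genes near one on the other strand. It was -2.78 without WT AAV replicate 7, the only library of unusual regional content in these groups. Without batches 1, 2 and 3 it was -2.63, -2.45 and -2.18, and without single mice -3.23 to -2.29. None of these passed the threshold except 5 of the 14 that leave out a single mouse. WT AAV against WT saline ranged from -1.59 to -0.846 without single mice, and passed without WT AAV replicate 5 (adjusted p = 0.0336).

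The light-to-heavy log2 ratio in saline mice lost its call with permutation within batches (-0.43) and without genes near the other strand (-0.50). It also lost it without DKO saline replicate 2 and WT saline replicate 6, the libraries of unusual regional content in these groups (-0.36). Without batches 1 to 4 it was -0.39, -0.40, -0.52 and -0.48, each time without a call. The ratio ranged from -0.53 to -0.38 without single mice. DKO AAV against WT saline gave -0.55 both without genes near the other strand and without batch 2. DKO AAV against WT AAV gave -0.16 without those genes and -0.37 without WT AAV replicate 7, the library of unusual regional content there. It gave -0.33, -0.38 and -0.46 without batches 2, 3 and 4, and -0.43 to -0.30 without single mice. The tRNA-to-protein ratio ranged from -0.50 to -0.31 in saline mice, from -0.30 to -0.21 in WT mice and from -0.45 to -0.28 in AAV mice without single mice. It passed in WT AAV against WT saline with permutation within batches (-0.26) or without genes near the other strand (-0.36), and in AAV mice with permutation within batches (-0.37). For DKO AAV against WT saline it missed without batches 2 (-0.53) and 3 (-0.62). Leaving out a batch leaves fewer splits of the mice, which limits the p that can be reached. The cause of the losses, with a batch left out or otherwise, was not tested.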
